A study of Arabidopsis thaliana with 18 samples.

Results

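*TPS11* (*AT5G44630*) and *TPS21* (*AT5G23960*) are the 2 terpene synthase genes of Arabidopsis whose products make up most of the sesquiterpene scent of the flower. Both were taken by gene identity, and each is read by 1 probe set of the ATH1 gene chip, hence 2 of 22746 probe sets tested. *TPS11* was named by the platform annotation, and *TPS21* through a supplementary table of the study, which holds genes picked from these same data. RNA came from whole flowers of *arf6-2 arf8-3* plants, which lack 2 auxin response factors, of *myb21-5 myb24-5* plants, which are mutated in 2 R2R3 MYB transcription factors, and of wild type, all in the Columbia ecotype and without any treatment. Each genotype was sampled at stage 13, when wild-type flowers have just opened, and at stage 12, as the largest closed buds, with 3 biological replicates (A, B and C) per group and 18 arrays in all. Flowers of both double mutants stay closed, so that stage 13 in a mutant is a position in the inflorescence rather than an open flower. The *myb21-5* allele carries an early stop codon and *myb24-5* a T-DNA insertion, and the chip still reads transcripts of both genes in the double mutant.

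Sesquiterpene synthases convert farnesyl diphosphate, the product of the cytosolic mevalonate pathway, into cyclic hydrocarbons, many of them volatile. TPS21 forms (*E*)-β-caryophyllene and α-humulene, and TPS11 forms thujopsene, β-chamigrene and related compounds. Expression of both genes has been placed in the carpel, that of *TPS11* also in the nectaries, and floral sesquiterpenes are known for roles in defence of the stigma and in insect behaviour. The jasmonate-responsive factor MYC2 is a known activator of both genes.

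Replicate A of the *myb21-5 myb24-5* stage 13 flowers, as labelled, was left out of the results given here, so that this group has 2 arrays and the fit 17. Over all probe sets its log2 values differed from those of *arf6-2 arf8-3* stage 13 replicate A with an SD of 0.121, and from replicates B and C of its own group with SDs of 0.538 and 0.551. Its *TPS11* value was 8.24 and its *TPS21* value 4.32, close to the 8.34 and 4.45 of that *arf6-2 arf8-3* array. Its *ARF6* value was 4.75 and its *ARF8* value 5.68, against 4.73 and 5.86 on the same *arf6-2 arf8-3* array. Replicates B and C of its own group had means of 9.34 for *ARF6* and 9.88 for *ARF8*. Whether the array was mislabelled was not tested. Array medians of the log2 expression values lay between 7.71 and 7.78. In the *arf6-2 arf8-3* flowers *ARF6* changed by -4.44 at stage 13 and -4.64 at stage 12 on the log2 scale, and *ARF8* by -4.06 and -4.19. Among the carpel markers *CRC* fell in *arf6-2 arf8-3* flowers (-2.13 at stage 13 and -1.32 at stage 12, log2), a call lost at stage 12 with all 18 arrays, whereas *SPT*, *NGA3* and *INO* were not called in either mutant.

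Wild-type flowers had high levels of both genes, and both mutants had less. In *arf6-2 arf8-3* stage 13 flowers *TPS11* had log2 values of 8.34, 8.49 and 7.45 (replicates A, B and C). In *myb21-5 myb24-5* stage 13 flowers it had 9.68 and 9.41 in replicates B and C, against 11.96, 12.26 and 12.06 in wild-type flowers. All mutant arrays therefore lay below all wild-type arrays, and the *arf6-2 arf8-3* arrays below those of *myb21-5 myb24-5*. At stage 12, *TPS11* had 9.58, 9.62 and 9.22 in *arf6-2 arf8-3* buds, 9.91, 10.52 and 10.36 in *myb21-5 myb24-5* buds and 11.79, 12.13 and 11.96 in wild-type buds. The groups again did not overlap. With 2 or 3 arrays per group, such separations are given here and below as a description. The share of all probe sets that separate in the same way was not counted.

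*TPS21* fell further. In *arf6-2 arf8-3* stage 13 flowers it had log2 values of 4.45, 4.51 and 4.32, and in *myb21-5 myb24-5* stage 13 flowers 6.61 and 6.25, against 11.61, 11.68 and 11.52 in wild-type flowers. At stage 12 it had 4.46, 4.21 and 4.49 in *arf6-2 arf8-3* buds, 4.72, 5.77 and 5.74 in *myb21-5 myb24-5* buds and 10.04, 10.46 and 10.05 in wild-type buds. The 3 genotypes did not overlap at either stage, although replicate A of the *myb21-5 myb24-5* buds stood close to the *arf6-2 arf8-3* buds. On the *arf6-2 arf8-3* arrays only 7.60% to 11.0% of probe sets had a lower value than *TPS21*, so that its signal lay near the low end of the array's range and left little room to read a further decrease. The signal was also low in *myb21-5 myb24-5* buds, with 13.3%, 26.6% and 24.6% of probe sets below it (replicates A, B and C). In *myb21-5 myb24-5* stage 13 flowers the share was 35.5% and 30.3% (replicates B and C). On wild-type arrays 87.0% to 97.3% of probe sets lay below *TPS21*. *TPS11* stayed well within the range on all arrays, with 45.9% to 62.9% of probe sets below it in *arf6-2 arf8-3* stage 13 flowers and 97.5% to 98.6% in wild type.

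**Figure D1:**
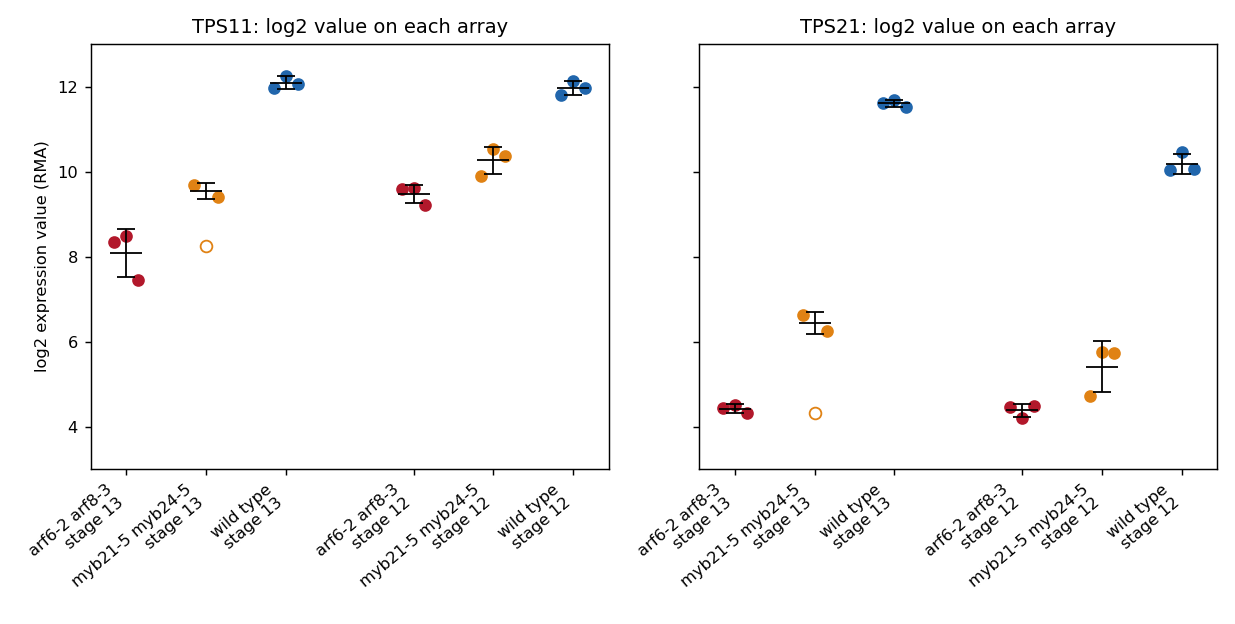
Log2 expression value (RMA) of *TPS11* and *TPS21* on each array, by genotype and stage. Filled points are arrays in the fit (left to right in the order A, B, C), lines and bars are group means ± SD, and the open circle is *myb21-5 myb24-5* stage 13 replicate A, which was left out; wild-type arrays lie between 11.79 and 12.26 for *TPS11* and between 10.04 and 11.68 for *TPS21*, above all mutant arrays.

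The comparison of each mutant with wild type asked whether expression of the synthases depends on the ARF and on the MYB factors. A gene was called at an adjusted p under 0.05 from limma, over all 22746 probe sets, and a change of at least 2-fold. At stage 13, *TPS11* was underexpressed 16.0-fold in *arf6-2 arf8-3* flowers (log2 change -4.00, SE 0.23, adjusted p = 1.65e-08). *TPS21* was underexpressed 145-fold in the same comparison (-7.18, SE 0.22, adjusted p = 1.79e-11), ranked 2 from the lowest of all 22746. Folds and ranks of *TPS21* that involve *arf6-2 arf8-3* rest on a signal near the low end of the array's range, and its true change may be larger. The same may hold for *myb21-5 myb24-5* buds, where its signal was also low. Both genes were thus called lower, against 3.72% of all probe sets. In *myb21-5 myb24-5* stage 13 flowers *TPS11* was underexpressed 5.84-fold (-2.55, SE 0.26, adjusted p = 1.05e-05). *TPS21* was underexpressed 36.0-fold there (-5.17, SE 0.25, adjusted p = 5.65e-09), with rank 10. Both were called lower, against 2.49% of all probe sets. *TPS21* was named only through a table of genes picked from these data. Its calls against wild type at either stage, and its ranks, are therefore no independent evidence of direction.

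At stage 12 both genes were also called lower in both mutants, against 3.03% of all probe sets in *arf6-2 arf8-3* buds and 1.05% in those of *myb21-5 myb24-5*. *TPS11* was lower by 5.61-fold in *arf6-2 arf8-3* buds (log2 change -2.49, SE 0.23, adjusted p = 4.50e-06) and by 3.25-fold in *myb21-5 myb24-5* buds (-1.70, SE 0.23, adjusted p = 0.000537). *TPS21* was lower by 55.6-fold in *arf6-2 arf8-3* buds (-5.80, SE 0.22, adjusted p = 4.29e-10) and by 27.4-fold in *myb21-5 myb24-5* buds (-4.77, SE 0.22, adjusted p = 5.81e-09), with rank 6 from the lowest in each. At each stage the comparisons of both mutants share the wild-type arrays. With all 18 arrays in the fit, the change at stage 13 in *myb21-5 myb24-5* was -2.98 for *TPS11* (adjusted p = 1.46e-05) and -5.87 for *TPS21* (adjusted p = 2.56e-07).

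**Figure D2:**
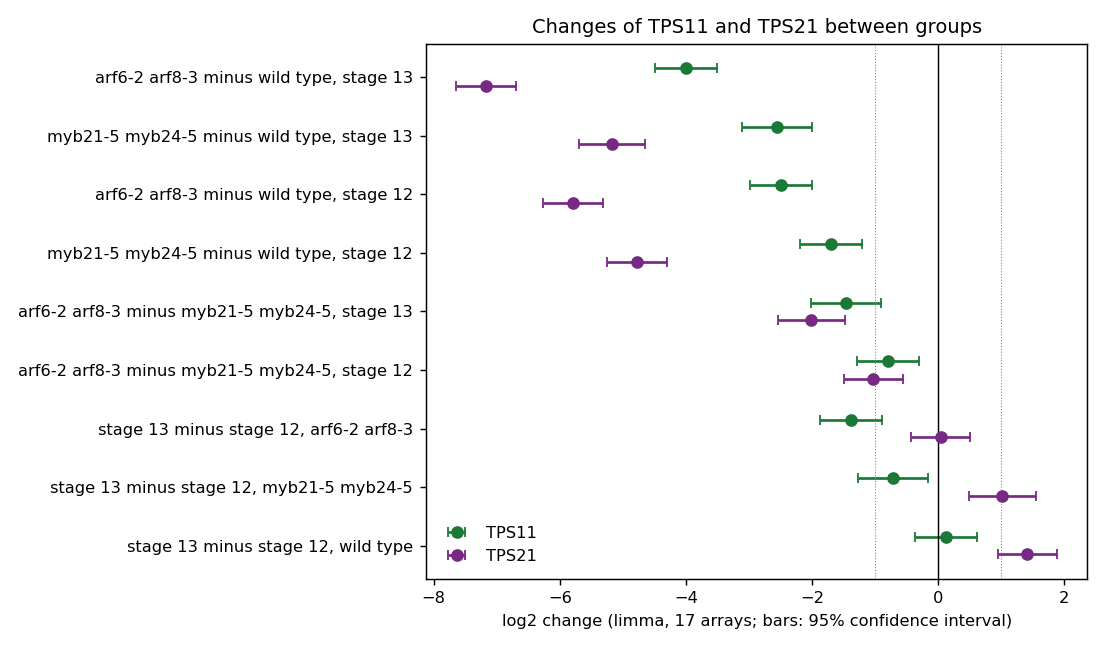
Log2 change of *TPS11* and *TPS21* (points) with its 95% confidence interval (bars) for each pair of groups, first minus second, from the limma fit of 17 arrays. Dotted lines mark a 2-fold change; in each of the 4 comparisons of a mutant with wild type *TPS21* lies further to the left than *TPS11*, from -4.77 to -7.18 against -1.70 to -4.00.

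The mutants were also set against each other. At stage 13, *TPS11* was 2.74-fold lower in *arf6-2 arf8-3* than in *myb21-5 myb24-5* flowers (log2 change -1.45, SE 0.26, adjusted p = 0.00168), and *TPS21* 4.02-fold lower (-2.01, SE 0.25, adjusted p = 7.90e-05), against 2.80% of probe sets called lower. Both calls were lost when the array left out was put back (-1.02, adjusted p = 0.188, and -1.30, adjusted p = 0.194). The values of that array, those of *ARF6* and *ARF8* among them, lay near those of *arf6-2 arf8-3*. At stage 12, *TPS21* was called 2.03-fold lower in *arf6-2 arf8-3* (-1.02, 95% confidence interval -1.50 to -0.55, SE 0.22, adjusted p = 0.00935), against 1.57% of probe sets. It lay just past the 2-fold limit and fell short of it without *arf6-2 arf8-3* replicate B (-0.93) or *myb21-5 myb24-5* replicate B (-0.84) or C (-0.86). With all 18 arrays its adjusted p was 0.217. *TPS11* had a change of -0.79 at stage 12 (95% confidence interval -1.29 to -0.29, adjusted p = 0.0509) and was not called.

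The difference between the log2 values of *TPS21* and *TPS11* on each array was compared between genotypes within each stage, and the 2 stages were averaged. A difference within an array bears on unequal change only, and does not compare the levels of the 2 genes. In *arf6-2 arf8-3* flowers the log2 change of *TPS21* minus that of *TPS11* was -3.18 at stage 13 and -3.31 at stage 12, a mean of -3.24 (exact permutation test of arrays within stages, two-sided p = 0.005, adjusted over 3 comparisons 0.0075). In *myb21-5 myb24-5* flowers the differences were -2.62 at stage 13 and -3.08 at stage 12, a mean of -2.85 (exact permutation test, two-sided p = 0.005, adjusted 0.0075). In each of these tests 0.005 is the smallest p the design allows, and each mutant array lay below each wild-type array of its stage. Since the genes were chosen with this pattern already known, the p-values describe the separation of the arrays and are not independent support for it. For *arf6-2 arf8-3* against *myb21-5 myb24-5* the mean difference was -0.39 (exact permutation test, two-sided p = 0.115), within the spread of the arrays. Because *TPS21* was near the low end of the range in *arf6-2 arf8-3*, the differences that involve this mutant may be understated in size. Its signal was also low in *myb21-5 myb24-5* buds, so that the stage 12 difference of that mutant may be understated as well.

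**Figure D3:**
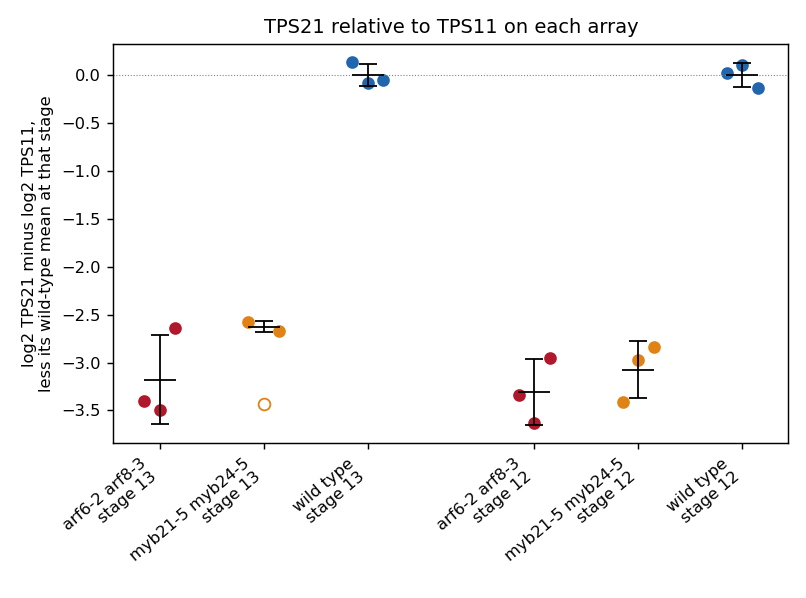
Log2 value of *TPS21* minus log2 value of *TPS11* on each array, with the wild-type mean of the same stage subtracted, by genotype and stage. Points, lines, bars and the open circle are as in the plot of values by array; mutant arrays in the fit lie between -2.58 and -3.63 and wild-type arrays between -0.13 and 0.13.

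Between the stages *TPS21*, but not *TPS11*, was called in wild type, and the difference between the genes was not tested there. *TPS21* was 2.68-fold higher in stage 13 flowers than in stage 12 buds (log2 change 1.42, SE 0.22, adjusted p = 0.000804), against 1.95% of probe sets called higher, with no overlap between the stages. With all 18 arrays its change was again 1.42, with an SE of 0.42 and an adjusted p of 0.0551. *TPS11* changed by 0.13 (95% confidence interval -0.37 to 0.63, adjusted p = 0.864), and its arrays of the 2 stages overlapped. In *myb21-5 myb24-5* plants *TPS21* was also called higher at stage 13, by 2.04-fold (1.03, SE 0.25, adjusted p = 0.0348), against 1.63% of probe sets. With the replicate letter as a block it had a change of 0.95, below 2-fold (adjusted p = 0.0263), and with all 18 arrays one of 0.32 (adjusted p = 0.736). Without stage 12 replicate A the change was 0.68 and not called, and the call was also lost without stage 13 replicate B (0.84) or C (1.21, adjusted p = 0.134) or wild-type stage 13 replicate B (adjusted p = 0.0503). *TPS11* changed by -0.72 in these plants (95% confidence interval -1.27 to -0.16, adjusted p = 0.145).

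In *arf6-2 arf8-3* plants *TPS11* was 2.60-fold lower at stage 13 than at stage 12 (log2 change -1.38, SE 0.23, adjusted p = 0.0135), against 0.378% of probe sets called lower. This call was lost without *arf6-2 arf8-3* stage 12 replicate B (-1.31, adjusted p = 0.0724) and with all 18 arrays (adjusted p = 0.0707). *TPS21* stayed near the low end of the range at both stages, with a change of 0.04 (95% confidence interval -0.43 to 0.52). The interaction term, the *arf6-2 arf8-3* effect at stage 13 minus that at stage 12, was -1.51 for *TPS11* (SE 0.33, adjusted p = 0.0294) and -1.38 for *TPS21* (SE 0.31, adjusted p = 0.0376), both called, against 0.888% of probe sets called lower. For *TPS21* the *arf6-2 arf8-3* signal was near the low end of the range at both stages, so that the effects compared may be understated in size and the term could not be read as freely as that of *TPS11*. The call of *TPS11* was lost when 1 of 6 arrays was left out (*arf6-2 arf8-3* stage 12 replicate A or B, wild-type stage 13 replicate B or C, or wild-type stage 12 replicate A or C), with adjusted p up to 0.0827. That of *TPS21* was lost without any 1 of 11 arrays, all those of *arf6-2 arf8-3* and wild type except wild-type stage 12 replicate B, with adjusted p up to 0.0955. For *myb21-5 myb24-5* the interaction was -0.85 for *TPS11* (adjusted p = 0.278) and -0.40 for *TPS21* (95% confidence interval -1.11 to 0.31, adjusted p = 0.694), and neither was called, against 0.739% of probe sets called lower.

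The groups can be put in order of their mean levels. For *TPS11*, from low to high, *arf6-2 arf8-3* stage 13 had 8.09 ± 0.56 (SD, n = 3), *arf6-2 arf8-3* stage 12 had 9.47 ± 0.22, *myb21-5 myb24-5* stage 13 had 9.55 ± 0.20 (n = 2), *myb21-5 myb24-5* stage 12 had 10.26 ± 0.32, and wild type had 11.96 ± 0.17 at stage 12 and 12.09 ± 0.15 at stage 13. The arrays of *arf6-2 arf8-3* stage 12 overlapped those of *myb21-5 myb24-5* stage 13, as did the 2 wild-type stages each other. For *TPS21* the order was *arf6-2 arf8-3* stage 12 (4.38 ± 0.15) and stage 13 (4.43 ± 0.10), which overlapped, then *myb21-5 myb24-5* stage 12 (5.41 ± 0.60) and stage 13 (6.43 ± 0.26), and wild type at stage 12 (10.18 ± 0.24) and stage 13 (11.60 ± 0.08). Apart from the first pair, no neighbours in this order overlapped. Because whole flowers were sampled, fewer cells of an expressing type and less RNA per cell cannot be told apart in these values.

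Most other terpene synthase genes were called in neither mutant against wild type, and most of these had low signals in all groups. Of 29 further family members listed by identity, 20 were measured. In *arf6-2 arf8-3* stage 13 flowers 6 of the 20 were called lower and 0 higher, against 3.72% and 2.75% of all probe sets. The median log2 change of the 20 was -0.03 there, against 0.00 over all probe sets. In *myb21-5 myb24-5* stage 13 flowers 3 were called lower and 1 higher, against 2.49% and 2.00% of all probe sets. At stage 12, 5 were called lower and 1 higher in *arf6-2 arf8-3* buds (3.03% and 1.54% of all probe sets). In *myb21-5 myb24-5* buds 3 were called lower and 0 higher (1.05% and 0.382%). Of the 20, 4 were named only through the study's tables, whose genes were picked from these data, so that their calls are no independent evidence of direction. Of the 13 genes called in neither mutant at either stage, 12 had group means between 3.56 and 5.44 in all 6 groups, with at most 22.7% of probe sets below them on any array, so that a decrease in a mutant could hardly have been read for them. Among the 16 named by the platform annotation, 2 were called lower in *arf6-2 arf8-3* flowers and 1 in *myb21-5 myb24-5* flowers at stage 13, against 3.72% and 2.49% of all probe sets.

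The other family members with the largest falls were *TPS10*, *TPS24* and *TPS14*, which make monoterpenes. *TPS10*, a myrcene and linalool synthase, changed by -6.82 in *arf6-2 arf8-3* flowers and by -2.65 in *myb21-5 myb24-5* flowers at stage 13 (log2; adjusted p = 1.60e-11 and 1.93e-06). *TPS24*, a monoterpene synthase, changed by -6.39 and -5.71 (adjusted p = 1.79e-11 and 5.34e-10), and *TPS14*, a linalool synthase, by -5.92 and -4.36 (adjusted p = 2.02e-08 and 3.30e-06). All 3 were called lower at stage 12 in both mutants as well. *TPS02* was called lower only in *arf6-2 arf8-3*, by -2.67 at stage 13 and -2.01 at stage 12, with -0.38 in *myb21-5 myb24-5* at stage 13. The difference between the mutants at stage 13 was itself called for *TPS02* (-2.29, adjusted p = 0.000198).

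*TPS04*, the geranyllinalool synthase, went the other way in *myb21-5 myb24-5* stage 13 flowers. It had a log2 change of 2.60 there (adjusted p = 0.000156), against -1.11 in *arf6-2 arf8-3* flowers (adjusted p = 0.0217), and *arf6-2 arf8-3* lay 3.70 below *myb21-5 myb24-5* (-3.70, adjusted p = 6.84e-06). With all 18 arrays no family member was called higher in *myb21-5 myb24-5* at stage 13. *TPS25* was called higher in *arf6-2 arf8-3* buds (1.93, adjusted p = 5.15e-05). *TPS18*, the remaining gene called at stage 13 in *arf6-2 arf8-3* flowers and named after its values were seen, changed by -1.82. In wild type *TPS10* (1.57, adjusted p = 0.000197) and *TPS24* (1.31, adjusted p = 0.00059) were, like *TPS21*, called higher at stage 13 than at stage 12. The call of *TPS10* was lost with all 18 arrays (adjusted p = 0.379) and that of *TPS24* was kept (adjusted p = 0.00161).

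**Figure D4:**
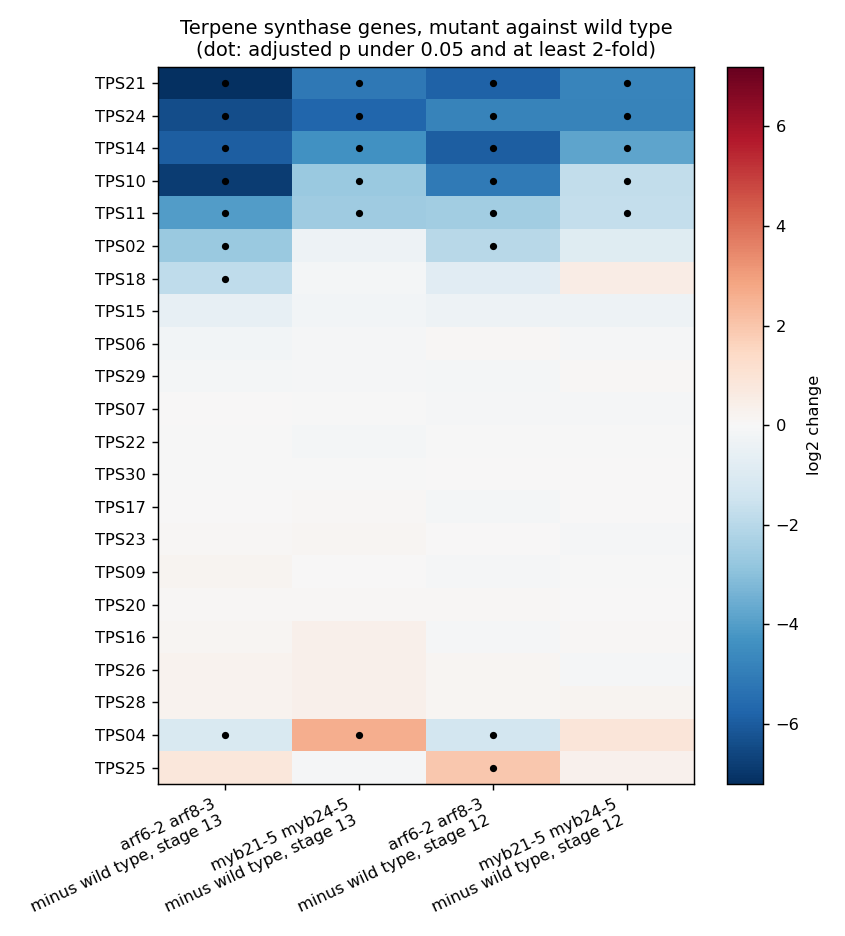
Log2 change, mutant minus wild type, of *TPS11*, *TPS21* and the 20 other terpene synthase genes measured (rows, ordered by their mean change), at stage 13 (the first pair of columns) and stage 12. Blue is lower and red higher in the mutant, and dots mark genes called; *TPS21*, *TPS24*, *TPS14*, *TPS10* and *TPS11* are called lower in all 4 columns, and 13 rows hold no call, 12 of them genes with low signals in all groups.

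The pathway that supplies farnesyl diphosphate could be read only in part. Of 13 genes of this pathway, from acetoacetyl-CoA thiolase to farnesyl diphosphate synthase, 4 had a named probe set, of which 1 was called lower and 1 higher in *arf6-2 arf8-3* at each stage, and 1 lower and 0 higher in *myb21-5 myb24-5*. Of all probe sets, 3.72% were called lower and 2.75% higher in *arf6-2 arf8-3* at stage 13, and 3.03% and 1.54% at stage 12. In *myb21-5 myb24-5* the shares were 2.49% lower and 2.00% higher at stage 13, and 1.05% and 0.382% at stage 12. *IPP1*, an isopentenyl diphosphate isomerase, was called lower in *arf6-2 arf8-3* (-1.93 at stage 13 and -1.77 at stage 12, log2) and in *myb21-5 myb24-5* (-1.43 and -1.10). At stage 12 its call in *myb21-5 myb24-5* was lost without wild-type replicate A or *myb21-5 myb24-5* replicate C. *AACT1*, acetoacetyl-CoA thiolase, was called higher in *arf6-2 arf8-3* at both stages (1.12 and 1.13), but not without wild-type replicate A of the stage. Both of these genes were named only through the tables of the study, whose genes were picked from these data, so that their calls are no independent evidence. *PMK*, phosphomevalonate kinase, and *MVD2*, mevalonate diphosphate decarboxylase, were not called in any of the 4 comparisons of a mutant with wild type, and their changes lay between -0.24 and 0.39. *LUP1*, a lupeol synthase downstream of the competing squalene branch, was lower in *arf6-2 arf8-3* (-1.50 and -1.11) and in *myb21-5 myb24-5* at stage 13 (-1.07). Of 4 listed competing genes only *LUP1* was measured. It too was named only through the study's tables, so that its changes are no independent evidence.

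Of 5 listed cytochrome P450 genes of floral terpene oxidation, 4 were measured. All 4 were called lower in *arf6-2 arf8-3* at both stages and in *myb21-5 myb24-5* at stage 13, and 3 in *myb21-5 myb24-5* at stage 12. Of all probe sets, 3.72% and 3.03% were called lower in *arf6-2 arf8-3* at stages 13 and 12, and 2.49% and 1.05% in *myb21-5 myb24-5*. *CYP706A3*, whose product oxidises sesquiterpenes made by TPS11 and which is the gene next to *TPS11* in the genome, changed by -1.38 in *arf6-2 arf8-3* stage 13 flowers (SE 0.26, adjusted p = 0.00139) and by -1.50 in *myb21-5 myb24-5* stage 13 flowers (SE 0.29, adjusted p = 0.00324). At stage 12 it changed by -1.08 (adjusted p = 0.0129) in *arf6-2 arf8-3* buds and by -0.90 in *myb21-5 myb24-5* buds (adjusted p = 0.0858, not called). Between the wild-type stages it changed by -0.27 and was not called. *CYP71B31*, *CYP76C3* and *CYP76C1*, which act on linalool, were called lower in both mutants at both stages, from -1.86 to -8.51. Of the 4 measured P450 genes *CYP71B31* was named by the platform annotation, and *CYP706A3*, *CYP76C3* and *CYP76C1* only through the study's tables. Those tables hold genes picked from these data, so that the calls of these 3 genes are no independent evidence. The gene next to *TPS21*, *AT5G23970*, annotated as a transferase family member, changed by -1.76 in *arf6-2 arf8-3* stage 13 flowers (adjusted p = 0.00434) and by 0.17 in *myb21-5 myb24-5* stage 13 flowers (adjusted p = 0.878, not called). At stage 12 it changed by -2.68 in *arf6-2 arf8-3* buds (adjusted p = 0.000292) and by -0.81 in *myb21-5 myb24-5* buds (not called).

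Among 10 measured genes of 15 listed as regulators, 7 were called lower in *arf6-2 arf8-3* flowers at each stage. In *myb21-5 myb24-5*, 2 were called lower at stage 13 and 3 at stage 12, the latter count falling to 1 with all 18 arrays. Of all probe sets, 3.72% and 3.03% were called lower in *arf6-2 arf8-3* at stages 13 and 12, and 2.49% and 1.05% in *myb21-5 myb24-5*. Of the 10, 8 were named only through the study's tables, 0 of the other 2 were called, and the 7 include the mutated *ARF6* and *ARF8* themselves, so that these counts are no independent evidence. *MYC2* changed by -0.88 in *arf6-2 arf8-3* stage 13 flowers (adjusted p = 0.00655, under 2-fold) and by 1.13 in *myb21-5 myb24-5* stage 13 flowers (adjusted p = 0.00475, called higher). *TPS11* and *TPS21* were lower in both. The *MYC2* call in *myb21-5 myb24-5* was lost with all 18 arrays and without replicate C. *MYC3* and *MYC4*, its close relatives, were not called in any of the 4 comparisons of a mutant with wild type. *MYB21*, read by the brighter of its 2 probe sets, changed by -7.00 and *MYB24* by -4.50 (log2) in *arf6-2 arf8-3* stage 13 flowers. In *myb21-5 myb24-5* stage 13 flowers, whose transcripts carry the mutations, *MYB21* changed by -0.46 and *MYB24* by 0.93, and neither was called. The other *MYB21* probe set changed by -5.16 in *arf6-2 arf8-3* and by -0.98 in *myb21-5 myb24-5* flowers at stage 13 (adjusted p = 0.0277, under 2-fold), and at stage 12 both probe sets were called lower in *myb21-5 myb24-5* buds (-1.40 and -1.32). *MYB57*, a close relative of both, changed by -5.94 and -3.45, and *MYB108*, an R2R3 MYB of anther dehiscence, by -3.19 and -3.26 at stage 13 in *arf6-2 arf8-3* flowers and in those of *myb21-5 myb24-5*, all called.

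The listed nectary markers, like the 2 synthase genes, were lower in both mutants. All 4 listed (*SWEET9*, *CWINV4*, *JMT* and *YAB5*) were called lower in *arf6-2 arf8-3* at both stages and in *myb21-5 myb24-5* at stage 13, and 3 of the 4 in *myb21-5 myb24-5* at stage 12. Of all probe sets, 3.72% and 3.03% were called lower in *arf6-2 arf8-3* at stages 13 and 12, and 2.49% and 1.05% in *myb21-5 myb24-5*. The study names these 4 genes as underexpressed in both mutants on these same arrays, and *CWINV4* was named here only through its tables. Their calls are therefore no independent evidence. *SWEET9*, a sucrose transporter of nectar secretion, changed by -6.84 in *arf6-2 arf8-3* flowers and by -6.42 in *myb21-5 myb24-5* flowers at stage 13 (log2). The summed level of the 4 nectary markers on the linear scale was 328 to 411 in *arf6-2 arf8-3*, 1418 to 1531 in *myb21-5 myb24-5* and 9919 to 14956 in wild-type flowers at stage 13. At stage 12 it was 575 to 915 in *arf6-2 arf8-3*, 1204 to 1375 in *myb21-5 myb24-5* and 4274 to 5912 in wild-type buds. The summed level of the 4 carpel markers was 1048 to 1101 in *arf6-2 arf8-3*, 1852 to 2625 in *myb21-5 myb24-5* and 1406 to 1570 in wild-type flowers at stage 13, and of the 4 only *CRC* was called lower in *arf6-2 arf8-3*. There *CRC*, which is also required for nectary formation, changed by -2.13, *SPT* by 0.96 (adjusted p = 0.00186, under 2-fold), *INO* by 0.24 and *NGA3* by 0.00. In *myb21-5 myb24-5* stage 13 flowers *CRC* had a mean of 10.53, against 9.74 in wild type (log2), and was not called. The study describes nectaries of the *myb* double mutant as normal in appearance. *SWEET9* had the highest wild-type mean of the 4 nectary markers at stage 13 (12.76, log2) and weighed most in their sum. Whether that sum follows the amount of nectary tissue was not tested. The part of the organ markers in the changes of *TPS11* and *TPS21* was not tested.

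The genes with profiles most like each synthase were found among 13950 probe sets of 1 named gene each, from the root mean square difference of log2 values over the 17 arrays after centring each on its own mean. Small values mean a change of like size and direction on each array, and the measure is given as a description. Nearest to *TPS21* were *MLP168*, a major latex protein-like gene, at 0.399, *TPS24* at 0.571, *TPS14* at 0.637, *SWEET9*, the nectary sucrose transporter, at 0.642, *AAE11*, an acyl-activating enzyme gene, at 0.682 and *CYP76C3* at 0.719. Nearest to *TPS11* were *AT1G12080* at 0.455, *CWINV4*, the nectary cell wall invertase, at 0.468, *scpl40*, a serine carboxypeptidase-like gene, at 0.475, *AT3G01980* at 0.511, *CYP96A9* at 0.540 and *IAA19*, an Aux/IAA gene, at 0.554. The 2 lists share no gene, and each holds 1 nectary marker. Of the listed genes, *MLP168*, *TPS14*, *AAE11*, *CYP76C3*, *CWINV4*, *CYP96A9* and *IAA19* were named only through the study's tables, whose genes were picked from these data. Such tables named 515 probe sets, while 8292 stayed unnamed and could not enter, so that the lists are not an even search of the array. *TPS11* and *TPS21* differed from each other by 1.69 in this measure, with rank 55 for *TPS11* among the profiles nearest to *TPS21*. *TPS21* itself ranked 12674 for *TPS11*, behind many probe sets with flat profiles.

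**Figure D5:**
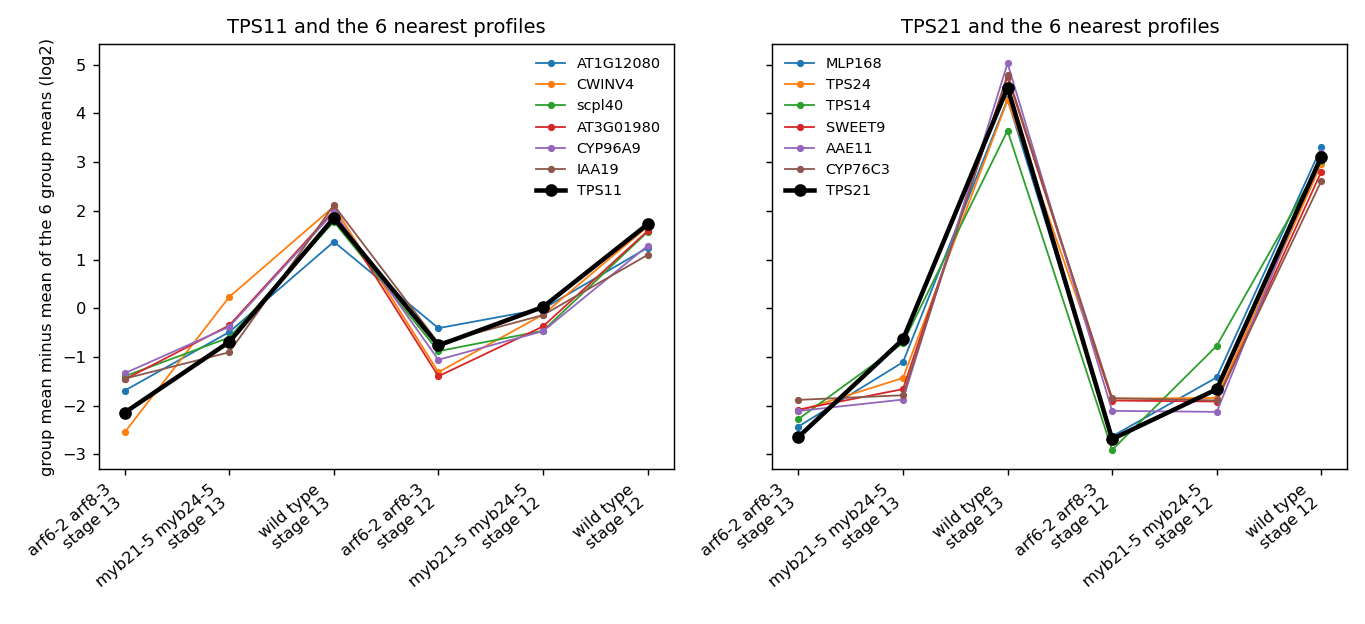
Group means (log2) of *TPS11* with its 6 nearest profiles and of *TPS21* with its 6, each centred on the mean of its 6 group means, by genotype and stage. Thick black lines are *TPS11* and *TPS21*. All profiles of both plots have their highest group mean in wild type at stage 13, and *TPS11* shows nearly equal wild-type levels at the 2 stages (12.09 at stage 13 and 11.96 at stage 12).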

How the data were processed

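RNA of 18 flower samples (6 groups of 3 biological replicates) had been hybridised to Affymetrix ATH1 arrays. Per the methods of the study, MAS5 software was used for scanning, and the authors corrected and normalised the signals by RMA in Genespring and deposited log2 expression values, 1 per probe set. An array gives no read depth, so the number of arrays limits the precision. Of 22810 probe sets, 64 controls were left out and 22746 tested; 13436 had 1 gene in the platform table, 503 had several, 515 were named only through the study's tables and 8292 stayed unnamed. The genes of the plastid terpene precursor pathway, *AP3*, *PI* and *AG*, and 3 reference genes had no named probe set here and were not used. Each listed gene is represented by its named probe set, and *MYB21*, which has 2, by the one with the higher mean.

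Group means of 17 arrays were fitted with limma 3.58.1 (R 4.3.3; lmFit and eBayes), and two-sided p-values were adjusted over all probe sets per contrast (Benjamini-Hochberg). The array of *myb21-5 myb24-5* stage 13 left out enters an alternative. Deviations from group means of same-letter arrays correlated between -0.02 and 0.743 over 24 pairs; each pair was above 0.1 in 5 of the 6 comparisons with 3 pairs, all but *arf6-2 arf8-3* against wild type at stage 12. The labels do not say what a letter shares, so the fit blocked on letter was kept as an alternative.

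The 2 genes and the gene lists were chosen with earlier results of these data known. Named were both genes in full, members of the pathway, P450 and regulator lists, adjacent genes, and the 6 nearest profiles each. Of the other terpene synthases, up to 6 with the largest absolute log2 change in any mutant were named. *TPS18* was added after its values were seen. Alternatives were all 18 arrays, the block, only the groups compared, trended robust variances, array weights, quantile normalization, median centring, a filter on dim probe sets, the methods' t-test, a stricter threshold and each array left out.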

Additional observations from a re-analysis of the deposited data

Results flagged for a closer look

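The *arf6-2 arf8-3* effect differed between the stages for both genes by the interaction term of the limma fit. The effect at stage 13 minus that at stage 12 was -1.51 on the log2 scale for *TPS11* (adjusted p = 0.0294) and -1.38 for *TPS21* (adjusted p = 0.0376). For *TPS11* the difference goes with lower values in *arf6-2 arf8-3* flowers at stage 13, and for *TPS21* with higher values in wild-type flowers at stage 13 while the mutant stayed near the low end of the array's range at both stages. With all 18 arrays neither difference was called (adjusted p = 0.168 and 0.482).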

How the results depend on the processing

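The calls of *TPS11* and *TPS21* in the 4 comparisons of a mutant with wild type kept their direction and their side of the threshold in 221 of 224 alternatives run. The 3 lost calls came with the methods' t-test after Benjamini-Hochberg adjustment: *TPS11* in *myb21-5 myb24-5* at stage 13 (-2.55, adjusted p = 0.0504) and stage 12 (-1.70, 0.162), and *TPS21* in *myb21-5 myb24-5* at stage 12 (-4.77, 0.103). That test also lost *arf6-2 arf8-3* against *myb21-5 myb24-5* for *TPS11* at stage 13 (-1.45, 0.189) and for *TPS21* at stages 13 (-2.01, 0.0599) and 12 (-1.02, 0.356), and the stage changes of *TPS11* in *arf6-2 arf8-3* (-1.38, 0.358) and of *TPS21* in *myb21-5 myb24-5* (1.03, 0.448; unadjusted p = 0.115) and wild type (1.42, 0.0531). It was not run for the interactions. With all 18 arrays the comparisons of the 2 mutants were lost for *TPS11* at stage 13 (-1.02, 0.188) and for *TPS21* at stages 13 (-1.30, 0.194) and 12 (-1.02, 0.217), as were the stage changes of *TPS11* in *arf6-2 arf8-3* (-1.38, 0.0707) and of *TPS21* in *myb21-5 myb24-5* (0.32, 0.736) and wild type (1.42, 0.0551), and the *arf6-2 arf8-3* interactions of *TPS11* (-1.51, 0.168) and *TPS21* (-1.38, 0.482). Fitting only the groups compared lost *TPS21* between the mutants at stage 12 (-1.02, 0.128), the stage changes of *TPS11* in *arf6-2 arf8-3* (-1.38, 0.171) and *TPS21* in *myb21-5 myb24-5* (1.03, 0.190) and the interaction of *TPS11* (-1.51, 0.0531). At an adjusted p under 0.01 both *arf6-2 arf8-3* interactions (-1.51 and -1.38) and the stage changes of *TPS11* in *arf6-2 arf8-3* (-1.38) and *TPS21* in *myb21-5 myb24-5* (1.03) were lost. The last of these was under 2-fold with the replicate block (0.95), array weights (0.83) and quantile normalization (0.97), and the replicate block changed no other call of the 2 genes.

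Without each array in turn, the values in *arf6-2 arf8-3* against wild type ranged from -4.20 to -3.68 at stage 13 and from -2.57 to -2.36 at stage 12 for *TPS11*, and from -7.22 to -7.12 and -5.87 to -5.66 for *TPS21*. In *myb21-5 myb24-5* against wild type they ranged from -2.69 to -2.41 and -1.83 to -1.52 for *TPS11*, and from -5.35 to -4.99 and -4.95 to -4.43 for *TPS21*. Between *TPS21* at stage 12 in the 2 mutants they ranged from -1.37 to -0.84, for the stage change of *TPS11* in *arf6-2 arf8-3* from -1.58 to -1.06, for that of *TPS21* in *myb21-5 myb24-5* from 0.68 to 1.21, and for the *arf6-2 arf8-3* interactions from -1.71 to -1.19 for *TPS11* and from -1.52 to -1.31 for *TPS21*. The difference between the 2 genes kept its call in all 40 alternatives. Of the counts over lists, 18 moved by over 1.5 times, and 1182 did not. The alternative centred on reference genes was not run, because they had no named probe set here. The cause of the lost calls was not tested.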
